A study of Homo sapiens with 6 samples.

Results

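Caveolae are small flask-shaped pits of the plasma membrane that take part in mechanical buffering, lipid handling and signalling. Their membrane coat is built from caveolins, of which caveolin-1 (Cav1) is needed for the pit in most non-muscle cells and caveolin-2 (Cav2) assembles with it into mixed oligomers. Cavins are cytosolic proteins that bind caveolin-rich membrane from the inside: cavin-1 (Cavin1) is needed for the pit to form, and cavin-2 (Cavin2) and cavin-3 (Cavin3) join it in the coat. In the lung, caveolae are abundant in endothelium and in alveolar type I cells.

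The 5 genes described here are the caveolins Cav1 (ENSMUSG00000007655) and Cav2 (ENSMUSG00000000058) and the cavins Cavin1 (ENSMUSG00000004044), Cavin2 (ENSMUSG00000045954) and Cavin3 (ENSMUSG00000037060), picked by gene ID from the 54532 IDs in the deposited tables. All 5 passed the filter on low values, which kept 12755 IDs. They were picked as a gene family with the differences between the study's groups already known, so their levels and fold changes below are a description and carry no test. Other caveolins and cavins were not analysed here, because the tables used pair no name with their IDs.

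RNA abundance was measured in 6 libraries, 2 for each of the group names NC, sh1 and sh4. All are labelled as A549, a long-established line of human lung adenocarcinoma cells, and the study compared cells carrying a knockdown of a gene named DSTY with NC cells. What NC, sh1 and sh4 stand for is not written out in the labels, and sh1 and sh4 are taken as the knockdown groups by assumption. They give no treatment, time, batch or clone, and do not say whether the 2 libraries of a group came from separate cultures, so the spread between them may be technical.

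The gene IDs conflict with these labels. All 54532 carry the prefix of mouse genes, 0 carry the human prefix, and the submitters' processing notes name a human build (hg18), so the organism of the RNA is unresolved here and the mouse symbols are used only as the names of the IDs. None of the IDs matched the human name tables used here. The targeted gene, markers of the labelled lung cell type, markers of other cell types and the caveola partners, 91 symbols in 12 lists, could therefore not be read (0 matched), and whether the target was lowered was not analysed here. The libraries held between 14999786 and 18011798 reads recovered from the deposited values.

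The balance between transcripts of the coat genes differed between the groups. These are RNA levels, and the make-up of the coat itself was not measured. Cavin1 and Cavin3 were higher in sh1 than in NC and higher again in sh4, while Cav1 and Cav2 were lower in sh1 and lower again in sh4. Cavin2 was higher in both sh1 and sh4 than in NC, with its highest level in sh1. In bulk RNA, fewer cells with a transcript and less of it per cell cannot be told apart. Levels are FPKM, fragments counted per kilobase of a gene and scaled for depth, which allows genes of different length to be compared.

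**Figure D1:**
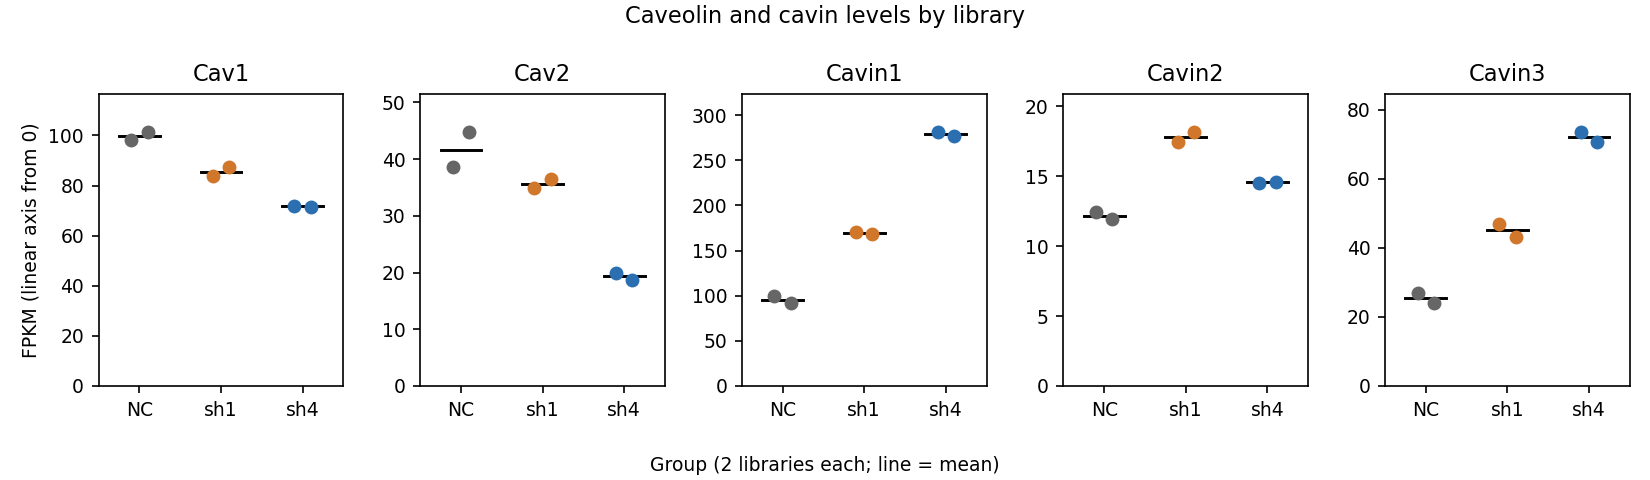
FPKM of each gene (linear axes from 0, a separate scale for each gene) in the 2 libraries of NC, sh1 and sh4, with a line at the group mean. For each of the 5 genes the libraries of a group lie apart from those of the other groups, with Cavin1 between 91.7 and 99.2 FPKM in NC and between 276.9 and 281.8 in sh4.

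Cav1, the caveolin that the pit requires, stood at 98.0 and 101.5 FPKM in the NC libraries, at 83.9 and 87.2 in sh1 and at 71.7 and 71.6 in sh4. Every sh4 library was below every sh1 library, and every sh1 library below every NC library. NC had a mean of 99.8 ± 2.5 FPKM, sh1 85.5 ± 2.4 and sh4 71.7 ± 0.1 (± SD, n = 2 each), a ratio to NC of 0.857 for sh1 and 0.718 for sh4. In log2(FPKM + 1), where differences of weakly expressed genes come out too small, sh1 differed from NC by -0.22, sh4 from NC by -0.47 and sh4 from sh1 by -0.25 (SE 0.04 for each). The last value depended on the scaling between libraries: it was -0.17 with scaling to total reads and -0.13 with scaling to a common FPKM sum. Cav1 was an abundant transcript throughout, with between 4525 and 5362 reads per library, and its rank by mean level among the 12755 IDs was 408 in NC, 522 in sh1 and 635 in sh4.

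Cav2, the partner that joins Cav1 in mixed oligomers, was less abundant, at 38.5 and 44.9 FPKM in NC, 34.9 and 36.4 in sh1 and 19.9 and 18.7 in sh4. The sh4 libraries stood well below all others, whereas the gap between NC and sh1 was narrow, 38.5 against 36.4 FPKM at its closest. NC averaged 41.7 ± 4.5 FPKM, sh1 35.7 ± 1.1 and sh4 19.3 ± 0.9 (± SD, n = 2 each). The mean of sh4 was 0.464 times that of NC and 0.542 times that of sh1. The log2 fold change was -1.07 (SE 0.07) for sh4 against NC and -0.85 (SE 0.07) for sh4 against sh1. For sh1 against NC it was -0.22 (SE 0.07), but -0.11 without NC replicate 2 and -0.32 without NC replicate 1, so a single NC library sets the size of that difference. The NC libraries differed from each other by more than counting error in Cav2, replicate 2 being 1.16 times replicate 1 (95% exact binomial interval 1.10 to 1.24 from the recovered reads, for counting error only).

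Cavin1, the cavin without which the pit does not form, had the largest increase of the 5 genes. It stood at 99.2 and 91.7 FPKM in NC, at 171.1 and 168.3 in sh1 and at 281.8 and 276.9 in sh4. The groups did not overlap and the steps between them were many times the spread within them. NC averaged 95.5 ± 5.3 FPKM, sh1 169.7 ± 2.0 and sh4 279.4 ± 3.5 (± SD, n = 2 each), and the mean was 1.78 times that of NC in sh1 and 2.93 times in sh4. The log2 fold change against NC was 0.82 in sh1 and 1.54 in sh4, and that between sh4 and sh1 was 0.72 (SE 0.04 for each). By mean level it held rank 426 among all IDs in NC, 241 in sh1 and 147 in sh4. Between 5045 and 18671 reads per library lay behind these values, so counting error is small beside the differences.

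Cavin3, which binds Cavin1 in the coat, followed the same course at a lower level. It was measured at 26.8 and 23.9 FPKM in NC, 46.8 and 43.2 in sh1 and 73.6 and 70.6 in sh4. Again the groups did not overlap. NC averaged 25.4 ± 2.1 FPKM, sh1 45.0 ± 2.6 and sh4 72.1 ± 2.1 (± SD, n = 2 each), and the mean was 1.77 times that of NC in sh1 and 2.84 times in sh4. On the log2 scale sh1 differed from NC by 0.80, sh4 from NC by 1.47 and sh4 from sh1 by 0.67 (SE 0.07 for each).

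Cavin2, the third of the cavins and the least abundant of the 5 genes in each group, did not share this order. Its level was 12.4 and 11.9 FPKM in NC, 17.5 and 18.2 in sh1 and 14.6 and 14.6 in sh4. The sh4 libraries lay between those of NC and those of sh1, with no overlap. NC averaged 12.2 ± 0.4 FPKM, sh1 17.8 ± 0.5 and sh4 14.6 ± 0.04 (± SD, n = 2 each). The log2 difference from NC was 0.51 for sh1 and 0.24 for sh4 (SE 0.06 for each). For sh4 against sh1 it was -0.27 (SE 0.06), but -0.20 with scaling to total reads and -0.16 with scaling to a common FPKM sum. With 558 to 979 reads per library, it had the fewest reads of the 5 genes.

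The 5 genes were then read against all 12755 IDs tested. In limma's fit across these IDs (Benjamini-Hochberg adjusted p below 0.05), 5 of 5 members were past the threshold in sh1 against NC, where 65.6% of all IDs were. The same held for sh4 against NC, with 68.1% of all IDs, and for sh4 against sh1, with 56% of all IDs. Of the members, 3 were higher and 2 lower in each comparison with NC. Among all IDs, 32.4% were called higher and 33.2% lower in sh1, and 35% higher and 33.2% lower in sh4. In sh4 against sh1, 2 members were higher and 3 lower, against 29.5% and 26.4% of all IDs. The share of higher IDs among the calls of sh4 against sh1 was 52.8% as deposited and 67% with scaling to a common FPKM sum. Cav2 was not past the threshold in sh1 against NC with no filter on low values, without NC replicate 2 or without sh1 replicate 1, which left 4 of 5 members. Cavin2 was not past it in sh4 against sh1 with scaling to a common FPKM sum. These comparisons were known when the genes were picked, and both comparisons with NC use the same NC libraries, so nothing is read from these counts.

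The size of the differences set the members apart from each other. A log2 fold change at least as high as that of Cavin1 in sh4 against NC was found for 1.60% of all IDs, and for Cavin3 the share was 1.92%. For Cav2 in sh4, 3.87% of IDs were at least as low. By contrast, 19.6% of IDs were at least as low as Cav1 in sh4, and 33.3% at least as high as Cavin2 in sh4. In sh1 the members other than Cavin2 were closer to the bulk of IDs than in sh4, and Cavin2 was farther from it: 8.84% were at least as high as Cavin1, 9.35% as Cavin3 and 17.9% as Cavin2, while 33.9% were at least as low as Cav1 and 34.2% as Cav2. In sh4 against sh1, 4.65% of IDs were at least as low as Cav2, 25.5% as Cav1 and 24.3% as Cavin2, and 6.74% were at least as high as Cavin1 and 7.46% as Cavin3. The median log2 fold change of the 5 genes was 0.51 in sh1 and 0.24 in sh4, against -0.0099 and 0.0054 over all IDs. Regardless of sign, their median was 0.51 for sh1 and 1.07 for sh4, against 0.36 and 0.37 over all IDs.

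**Figure D2:**
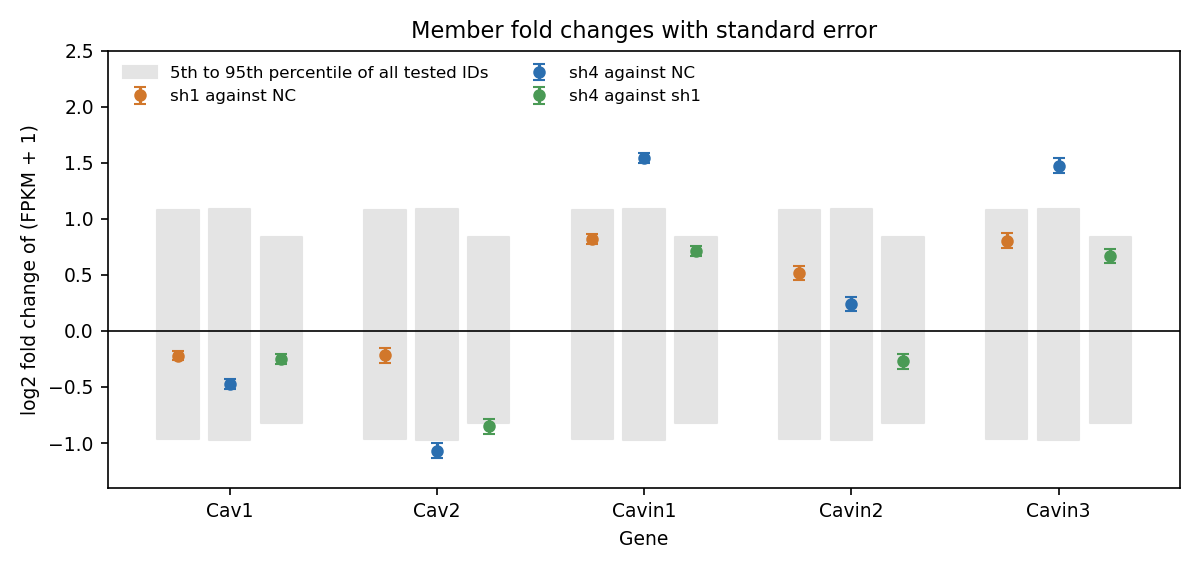
Log2 fold change of (FPKM + 1) for each gene in the 3 comparisons, with the standard error of the fit (bars) and the 5th to 95th percentile of all 12755 IDs tested (grey bands). Cavin1 (1.54) and Cavin3 (1.47) in sh4 against NC lie above the band and Cav2 (-1.07) below it, Cav2 in sh4 against sh1 (-0.85) lies just below its band, and Cav1 and Cavin2 lie inside the band in each comparison.

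The order of the groups was next compared with that of all IDs. NC below sh1 below sh4, with no overlap between libraries, was seen for Cavin1 and Cavin3 and for 11.8% of all IDs. The reverse order was seen for Cav1 and Cav2 and for 11% of all IDs. NC below sh4 below sh1 was seen for Cavin2 and for 11.1% of all IDs. Some order without overlap was seen for 5 of 5 members and for 57.4% of all IDs. Taken pair by pair, libraries did not overlap for 5 of 5 members between sh1 and NC (82.3% of all IDs), between sh4 and NC (82.7%) and between sh4 and sh1 (78%), so the separation itself was common.

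The order of the genes within a group changed as well. In NC, Cav1 (99.8 FPKM) and Cavin1 (95.5 FPKM) were the most abundant and their libraries overlapped, so neither stood above the other beyond the spread. Cav2, Cavin3 and Cavin2 followed, each apart from the next. In sh1, Cavin1 (169.7 FPKM) came first, ahead of Cav1 (85.5 FPKM), Cavin3 (45.0 FPKM), Cav2 (35.7 FPKM) and Cavin2 (17.8 FPKM), with no overlap between neighbours. In sh4, Cavin1 (279.4 FPKM) was again first, and Cavin3 (72.1 FPKM) and Cav1 (71.7 FPKM) overlapped. Cav2 (19.3 FPKM) and Cavin2 (14.6 FPKM) came last and did not overlap.

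Ratios of genes within a library do not depend on how libraries were scaled to each other. The sum of the 3 cavins divided by that of the 2 caveolins was 1.01 and 0.87 in the NC libraries, 1.98 and 1.86 in sh1 and 4.04 and 4.01 in sh4. Cavin and caveolin transcripts were thus about equally abundant in NC, and cavins exceeded caveolins in every sh1 and sh4 library. The mean ratio was 2.04 times that of NC in sh1 and 4.27 times in sh4. The cavin sum was 138.5 and 127.5 FPKM in NC against 370.0 and 362.1 in sh4, and the caveolin sum 136.6 and 146.4 FPKM in NC against 91.7 and 90.3 in sh4. Most of the shift in summed FPKM was therefore on the cavin side. Such a sum follows its most abundant gene, here Cavin1, with a mean of 95.5 FPKM in NC and 279.4 in sh4. The mean of Cavin3 was 25.4 FPKM in NC and 72.1 in sh4, and that of Cavin2 12.2 and 14.6. Caveolins made up 49.6% and 53.4% of the summed FPKM of the 5 genes in NC, 33.5% and 35.0% in sh1 and 19.86% and 19.96% in sh4.

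Single pairs showed where the balance moved and where it did not. Cavin1 over Cav1 was 1.01 and 0.90 in NC, 2.04 and 1.93 in sh1 and 3.93 and 3.87 in sh4, a clear step at each group. Cavin3 over Cavin1, by contrast, was 0.270 and 0.261 in NC, 0.274 and 0.257 in sh1 and 0.261 and 0.255 in sh4, and the 3 groups overlapped. The highest of these 6 values was 1.07 times the lowest, although the mean level of Cavin1 was 2.93 times, and that of Cavin3 2.84 times, as high in sh4 as in NC. Cavin2 over Cavin1 moved, from 0.125 and 0.130 in NC to 0.102 and 0.108 in sh1 and 0.0516 and 0.0527 in sh4. Within the cavins, the share of Cavin2 was thus lowest in sh4, where that of Cavin3 to Cavin1 was little different from NC.

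The pair of caveolins kept its ratio in one group and not in the other. Cav2 over Cav1 was 0.393 and 0.442 in NC and 0.416 and 0.418 in sh1, where both sh1 values lay inside the NC range. In sh4 it was 0.278 and 0.262, below all other libraries, and the mean was 0.646 times that of NC. Cav2 was thus lowered further than Cav1 in sh4. Cavin2 over Cav1 was 0.127 and 0.117 in NC, 0.208 and 0.209 in sh1 and 0.203 and 0.204 in sh4. The sh1 and sh4 values lay close together and apart from NC.

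**Figure D3:**
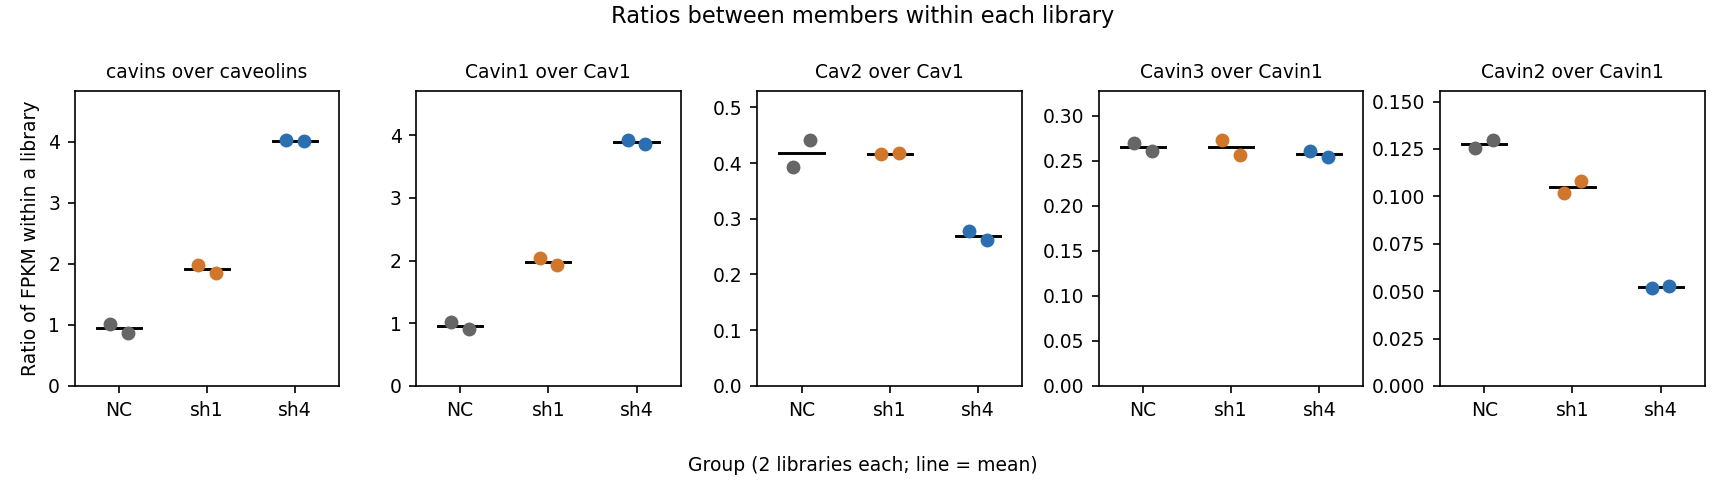
Ratios of FPKM within each library (linear axes from 0, a separate scale for each ratio), with a line at the group mean of 2 libraries. Cavins over caveolins step up from 0.87 and 1.01 in NC to 4.01 and 4.04 in sh4, while Cavin3 over Cavin1 lies between 0.255 and 0.274 in all 6 libraries.

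The likeness of the patterns was measured as the root-mean-square distance between log2(FPKM + 1) values over the 6 libraries, each gene centred on its own mean, among IDs that averaged at least 5 FPKM. Of 7690 other IDs, Cavin3 was the nearest to Cavin1, at 0.042 log2 units, and Cavin1 was the nearest to Cavin3. The median ID lay 0.66 log2 units from Cavin1. The next ID after Cavin3, ENSMUSG00000066357, lay at 0.068, with mean levels of 15.2 FPKM (NC), 31.2 (sh1) and 49.1 (sh4). The next after Cavin1 on the list of Cavin3 was ENSMUSG00000074480, at 0.069, with mean levels of 10.5, 17.9 and 27.4 FPKM. With a pseudocount of 0.1 in place of 1, Cavin3 remained the nearest to Cavin1 and Cavin1 the nearest to Cavin3. Both genes stood far above either pseudocount, so this check could move their distance only a little. The distance rests on 6 libraries in 3 groups and is a description of them. The differences between these groups were known when the genes were picked.

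By this distance, the caveolins were not each other's nearest. From Cav2, Cav1 lay at 0.29 log2 units with 581 IDs nearer, and from Cav1, Cav2 had 3646 IDs nearer. The distance counts the size of the changes as well as their direction. Over the 6 libraries the centred values of Cav1 and Cav2 correlated at 0.95 (Pearson). The ID nearest to Cav1 was ENSMUSG00000022811, at 0.0083 log2 units, with a mean of 7.33 FPKM in NC, a mean of 6.18 in sh1, and 4.99 and 5.01 in the sh4 libraries. At these levels the pseudocount of 1 shrinks differences more than at the level of Cav1. The distance of this ID with the other pseudocount is not given here. Nearest to Cav2 was ENSMUSG00000003948, at 0.036, with a mean of 24.3 FPKM in NC, a mean of 19.8 in sh1, and 11.3 and 10.7 in the sh4 libraries. Cavin2 held place 2349 from Cavin1, at 0.55 log2 units, and place 4575 from Cav1, at 0.34. The files do not pair these IDs with names.

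**Figure D4:**
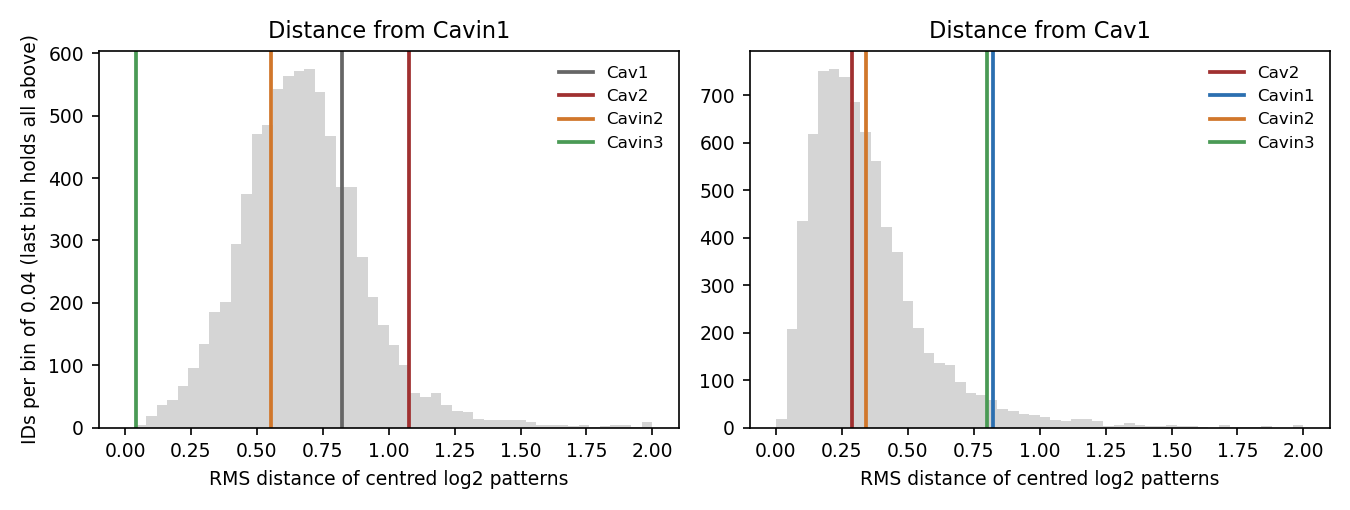
Number of IDs (of 7690, averaging at least 5 FPKM) by root-mean-square distance of their centred log2 pattern from that of Cavin1 (left) and Cav1 (right), with lines at the other members. Cavin3 lies at the far left of the Cavin1 plot (0.042), while from Cav1 the nearest member, Cav2, lies at 0.29 within the bulk of IDs.

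Replicates were close for most genes, with differences that ran one way in NC. In sh4 the second library over the first was 0.998 for Cav1, 0.983 for Cavin1 and 1.00 for Cavin2, each with a counting interval that held 1. In NC the ratio was 0.924 for Cavin1 (95% exact binomial interval 0.890 to 0.960) and 0.891 for Cavin3 (0.798 to 0.994), beside the 1.16 of Cav2. For Cav1 (1.04, 0.997 to 1.08) and Cavin2 (0.957, 0.852 to 1.08) the NC interval held 1, so their direction may be counting error. In sh1 the ratio was 0.922 for Cavin3 (0.853 to 0.997) and 1.04 for Cav1 (1.0001 to 1.08). For 5 of 5 members NC replicate 1 lay on the side of sh1 and sh4. The 5 genes share the library, and over the 5760 IDs called the same way in both comparisons with NC this held for 50.6%. No member's NC libraries overlapped those of sh1 or sh4, so leaving out either NC library could not reverse a fold change against NC.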

How the data were processed

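RNA was extracted with Trizol and sequenced on Illumina-protocol libraries, per the labels' protocols. HISAT2 2.0.5 and hg18 are named in the submitters' processing notes; for the counter and annotation the sources used here give nothing. The deposited files give 1 FPKM value per gene ID and library, computed by the authors. Whole reads and gene lengths that rebuild the values of 25747 of the 25747 IDs above 0 (within 1e-06 FPKM, widened by 1e-07 of the value) were recovered from them. The shortest length that fits was taken for each ID, so a rebuilt value does not by itself show that its reads are right. The denominators of the libraries followed the median-of-ratios size factors of these reads, so the deposited FPKM already hold the typical gene constant; no source used here states this step. Recovery and test were also run on simulated data in which few IDs changed, by the same fold in sh1 and sh4. The outcome of this check is not given here. In the study's data most IDs were called and sh4 differed from sh1, a setting that this check does not cover.

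Log2(FPKM + 1) values of the 12755 IDs that reached 1 FPKM in 2 libraries or more were fitted with limma 3.58.1 (R 4.3.3) over all 6 libraries (3 residual degrees of freedom, robust variance with its trend on mean recovered reads) and p-values adjusted by the Benjamini-Hochberg method. Named are the 5 members and, as the IDs have no names, the nearest ID by pattern to Cav1, Cav2, Cavin1 and Cavin3, 2 that were higher and 2 that were lower. The members and lists were chosen with earlier results of these data known. The alternatives were another pseudocount, other filters, other scalings, voom, the replicate block and leaving out each library. Counts of the planned caveola-related lists were not made, and no sequence is printed, since the tables used hold no mouse IDs.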

Additional observations from a re-analysis of the deposited data

Results flagged for a closer look

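The difference from NC was not the same in sh4 as in sh1, by limma's test of sh4 against sh1 (Benjamini-Hochberg adjusted p below 0.05), for 7139 of 12755 IDs, or 56%. The 5 caveolin and cavin genes were among them, with log2 differences of 0.72 for Cavin1, 0.67 for Cavin3, -0.25 for Cav1, -0.27 for Cavin2 and -0.85 for Cav2. They were picked with this comparison known. The test rests on 2 libraries a group, and the spread between them may be technical.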

How the results depend on the processing

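The counts of IDs called stayed within 1.5 times their value under every alternative run. The share called did change with the filter, as the number of IDs tested changed. In sh1 against NC, 8361 of 12755 IDs were called in the main fit. With no filter 8202 of 25747 were called, and 5682 of 7691 at a mean of at least 5 FPKM. The members' log2 fold changes kept their direction in 195 of 195 values, of which 25 moved by more than the SD between replicates. A change of filter, the replicate block and leaving out a library outside the comparison cannot alter these values. As no member's libraries overlapped between groups, another pseudocount or leaving out a library within the comparison could alter the size but not the direction. Only the other scalings and voom could have reversed a direction. Most of the 195 directions were therefore fixed in advance, and the counts overstate how far the folds were tried. With scaling to total reads, sh1 against NC gave -0.2809 for Cav1, 0.7631 for Cavin1 and 0.4567 for Cavin2, and sh4 against sh1 gave -0.1722, 0.7962 and -0.1966. With scaling to a common FPKM sum, sh1 against NC gave -0.297 for Cav1, 0.7468 for Cavin1 and 0.4412 for Cavin2, sh4 against NC gave -0.4275 for Cav1 and 0.2843 for Cavin2, and sh4 against sh1 gave -0.1305 for Cav1, -0.7329 for Cav2, 0.8382 for Cavin1, -0.1569 for Cavin2 and 0.7897 for Cavin3. By voom, Cavin2 in sh1 was at 0.5514. Leaving out 1 library gave -0.3229 to -0.109 for Cav2 in sh1, -1.174 to -0.9601 for Cav2 in sh4, 0.768 to 0.8806 for Cavin1 in sh1 and 1.4839 to 1.5965 for Cavin1 in sh4; the lone library is then assumed to vary like the other groups. The cause was not tested. The call of Cav2 in sh1 was lost with no filter, without NC replicate 2 and without sh1 replicate 1, and that of Cavin2 in sh4 against sh1 with the common FPKM sum. With the replicate block 8503, 8836 and 7345 IDs were called for sh1 against NC, sh4 against NC and sh4 against sh1, and no call of the members changed. Deviations of same-numbered libraries correlated at -0.01, 0.12 and -0.02, and the labels attach no batch to the numbers. Counts of caveola-related genes and the level of the targeted gene could not be computed, as no ID has a name. Cavin2 had the fewest reads and so the widest counting error of the members. Its SE in the main fit (0.063) was nonetheless below those of Cav2 (0.068) and Cavin3 (0.066).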
